A study of Mus musculus with 12 samples.

Results

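The S100 genes other than those of calprotectin were followed in sorted mouse breast tumour cells: S100a1, S100a3, S100a4, S100a5, S100a6, S100a10, S100a11, S100a13, S100a14 and S100a16. The list was set by gene name, leaving out the calprotectin genes S100a8 and S100a9, with earlier results of these data known. They make up 10 of the 54146 genes in the deposited expression table, and all 10 passed the filter on low values. The tumour cells were D2A1, a mouse mammary carcinoma line carrying a doxycycline-inducible H2B-GFP reporter, which had been stained with CellVue Claret (CVC), a membrane dye that fades as cells divide, and injected into the tail vein of young adult female mice. In the second week after injection GFP+ cells were sorted from the lungs as CVC-positive (dormant) or CVC-negative (growing), and RNA from small aliquots was sequenced. The hosts were WT, or Tgfbr2 KO, in which Cre driven by the Lysozyme 2 promoter (LysM-Cre) deletes the floxed gene of the type II TGF-β receptor in myeloid cells and not in the tumour cells. The labels name the control hosts WT, and the study also describes them as flox controls. State and host give 4 groups with 3 libraries in each, named growing WT, growing KO, dormant WT and dormant KO.

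S100 proteins are small calcium-binding proteins of the EF-hand family that mostly work as dimers. Calcium opens a groove through which they bind partners such as annexins, myosin heavy chain or ubiquitin-ligase adaptors, and some are released and act on cell-surface receptors, among them the receptor encoded by Ager. Several members, S100a4 above all, are known for their high levels in motile and metastatic carcinoma cells. Levels are given as TPM, the length-scaled share of a library's transcripts that lets genes be compared with each other. A difference between groups is a difference of mean log2(TPM + 1) with its standard error (SE), and a gene is said to have risen or fallen only where limma gave an adjusted p of at most 0.05 (Benjamini-Hochberg over the 13002 genes tested) and the difference was at least 1.

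All WT libraries carry the batch number 1 in their names and all KO libraries the number 2, so for every comparison of hosts the host genotype and the batch cannot be told apart. The study describes the libraries of a group as biological triplicates, with as many mice as libraries, which the labels do not state, and p-values measure the spread between these libraries. Tgfbr2 itself, which the design leaves intact in tumour cells, had 3.38, 0.14 and 11.1 TPM in dormant WT, 10.9, 2.19 and 11.5 TPM in dormant KO, and between 0.44 and 1.58 TPM in the 6 growing libraries, so it does not check the host labels. Of 7 mammary epithelial markers, Krt8 and Krt18 were at 52.1 to 519 TPM over the 12 libraries, Cldn4 was listed at 0 in all of them, Cdh1 did not pass 1.88 TPM and Epcam did not pass 5.34 TPM. Krt19, which is also on the mesothelial list used further on, was at 252 to 418 TPM in dormant KO, did not pass 0.59 TPM in dormant WT or 7.02 TPM in growing WT, and was at 11.3 to 14.2 TPM in growing KO. Krt7 was at 29.6 to 61.5 TPM in dormant KO and did not pass 2.18 TPM in the other 9 libraries. Between dormant WT and dormant KO, Krt19, Krt7 and Epcam rose (log2 differences of 8.03 for Krt19 and 5.35 for Krt7, adjusted p = 2.03e-05 and 2.28e-05, limma) and Krt8 fell (-1.62, adjusted p = 0.00541, limma). The dormant KO libraries also held more transcripts of genes that mark other cells, and which cells these came from was not tested. The 78 genes of 12 marker lists for lung, blood and heart cells together took 10.6 to 11.4% of the TPM in dormant KO, against 1.15 to 1.64% in dormant WT, 0.685 to 0.75% in growing WT and 0.945 to 1.03% in growing KO. Libraries of a group were least alike in dormant WT, where Pearson's r over genes was 0.666 to 0.715, against 0.866 to 0.952 in the other groups. These are sums over sorted aliquots, in which fewer cells of a type and less RNA per cell cannot be told apart.

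All 10 genes lie on mouse chromosome 3 in 2 groups (GRCm38 with GENCODE M21 gene models). The first, of 8 genes, spans 113148 bases in the order S100a1, S100a13, S100a14, S100a16, S100a3, S100a4, S100a5 and S100a6, and the second, 2896306 bases further on, holds S100a11 and S100a10 within 44156 bases. S100a8 and S100a9 lie between the groups. S100a1 is on the minus strand and the other 9 are on the plus strand, so that S100a1 (chr3:90511034-90514392) and S100a13 (chr3:90514435-90524581) point away from each other across 42 bases. That short stretch is shown because both gene models start at its edges, and it is given on the plus strand from chr3:90514393-90514434. The RefSeq start of S100a1 lies inside its gene model, as its RefSeq promoter entry reaches down to chr3:90514331.
S100a1-S100a13 intergenic: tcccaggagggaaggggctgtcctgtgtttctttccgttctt

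S100a4, S100a6, S100a11 and S100a16 stand for the different patterns described next, and the bases before their starts are shown for that reason, from RefSeq promoters on GRCm38.p6, all on the plus strand. Of the 10 genes, 8 had a RefSeq promoter entry (12 entries in all, as some genes have several starts). S100a10 and S100a14 had none. Capitals mark matches, on either strand, to 4 motifs that do not overlap here: TGANTCA, the AP-1 site, TATAAA, the TATA box, CCCCACCC, a motif of the transcription factor KLF4, and GGGCGG, the GC box. The stretches are chr3:90603520-90603769 for S100a4, chr3:90612644-90612881 for S100a6, chr3:93520246-93520487 for S100a11 and chr3:90537004-90537253 for S100a16 (the first of its starts).
S100a4 upstream: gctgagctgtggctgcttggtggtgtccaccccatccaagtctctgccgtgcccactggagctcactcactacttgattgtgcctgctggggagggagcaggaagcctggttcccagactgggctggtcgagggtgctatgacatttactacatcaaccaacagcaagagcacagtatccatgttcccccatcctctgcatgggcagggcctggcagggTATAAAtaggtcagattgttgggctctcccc
S100a6 upstream: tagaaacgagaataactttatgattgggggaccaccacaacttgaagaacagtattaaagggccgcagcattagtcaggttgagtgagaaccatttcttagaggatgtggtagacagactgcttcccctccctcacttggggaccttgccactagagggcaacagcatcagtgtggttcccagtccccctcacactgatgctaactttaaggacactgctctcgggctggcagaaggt
S100a11 upstream: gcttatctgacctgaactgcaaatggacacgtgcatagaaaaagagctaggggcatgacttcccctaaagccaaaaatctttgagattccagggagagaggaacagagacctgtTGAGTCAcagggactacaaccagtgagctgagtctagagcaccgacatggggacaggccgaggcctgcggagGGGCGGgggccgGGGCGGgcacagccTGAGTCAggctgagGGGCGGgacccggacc
S100a16 upstream: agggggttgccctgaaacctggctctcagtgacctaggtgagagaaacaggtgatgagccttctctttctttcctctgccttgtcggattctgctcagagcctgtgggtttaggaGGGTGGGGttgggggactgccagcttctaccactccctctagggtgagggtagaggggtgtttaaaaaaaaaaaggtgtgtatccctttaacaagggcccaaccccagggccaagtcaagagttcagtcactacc

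The S100a4 stretch holds a TATA box 31 bases before the start, a motif found in the 250 bases before the start in 12.4% of 32851 mouse promoters. The entry of S100a11 holds the AP-1 site at 136 and 38 bases and the GC box at 64, 52 and 24 bases before the RefSeq start, which lies 8 bases past the GENCODE start at which the stretch shown ends, against 6.75% and 32.7% of all promoters with at least 1 match. The S100a16 stretch holds CCCCACCC on the minus strand at 135 bases, as 9.05% of promoters do. No match to these letters lies in the S100a6 window or between S100a1 and S100a13. These matches describe the sequence and were not tested for binding.

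Levels differed widely among the 10 genes, from S100a10, one of the most abundant transcripts in growing cells, to S100a14, listed at 0 in 8 of 12 libraries. The 10 genes together took 2.56 to 2.81% of the TPM in growing WT (2.70% ± 0.129, SD, n = 3) and 2.62 to 2.86% in growing KO (2.74% ± 0.121). They took 1.89 to 2.41% in dormant WT (2.10% ± 0.275) and 1.15 to 1.40% in dormant KO (1.31% ± 0.139). Each dormant KO library was below every other library, and each dormant WT library was below every growing library. S100a10, S100a6 and S100a4 supplied most of this. S100a10 ranked 6th of all genes by mean TPM in growing WT, 7th in growing KO, 17th in dormant WT and 37th in dormant KO.

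**Figure D1:**
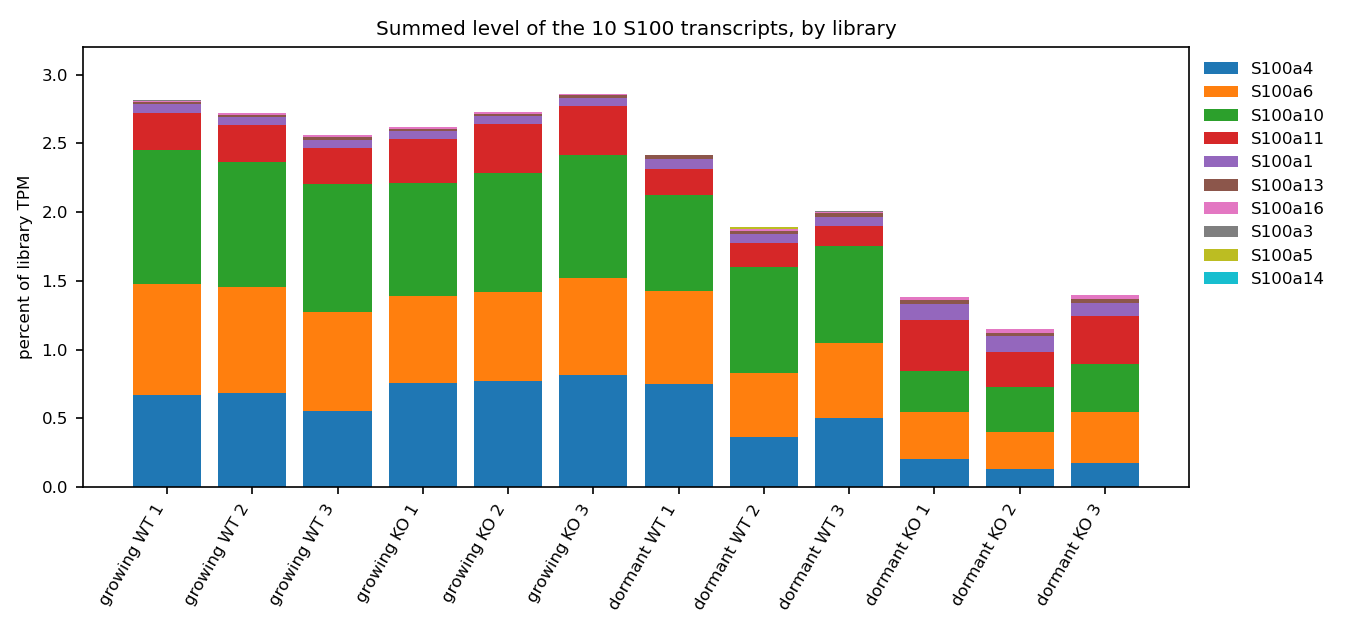
Summed level of the 10 S100 transcripts in each of the 12 libraries, as percent of library TPM on the vertical axis, with 1 colour per gene. The dormant KO bars end between 1.15 and 1.40%, below all others, and S100a4, S100a6 and S100a10 make up 62.8% of their height on average, against 84.1 to 86.7% in the other groups.

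The make-up of the family differed as well as its size. S100a4, S100a6 and S100a10 together held 86.7% ± 1.75 of the S100 sum in dormant WT, 86.7% ± 0.494 in growing WT, 84.1% ± 0.391 in growing KO and 62.8% ± 1.41 in dormant KO (SD, n = 3). S100a11 held 24.8% ± 2.07 of the sum in dormant KO and 8.01% ± 1.14 in dormant WT. S100a1 held 8.21% ± 1.41 and 3.33% ± 0.176 in the same groups. S100a6 held 24.9% ± 1.14 in dormant KO and 26.5% ± 1.79 in dormant WT, with overlapping libraries. The sum and the shares are descriptions without a test.

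**Figure D2:**
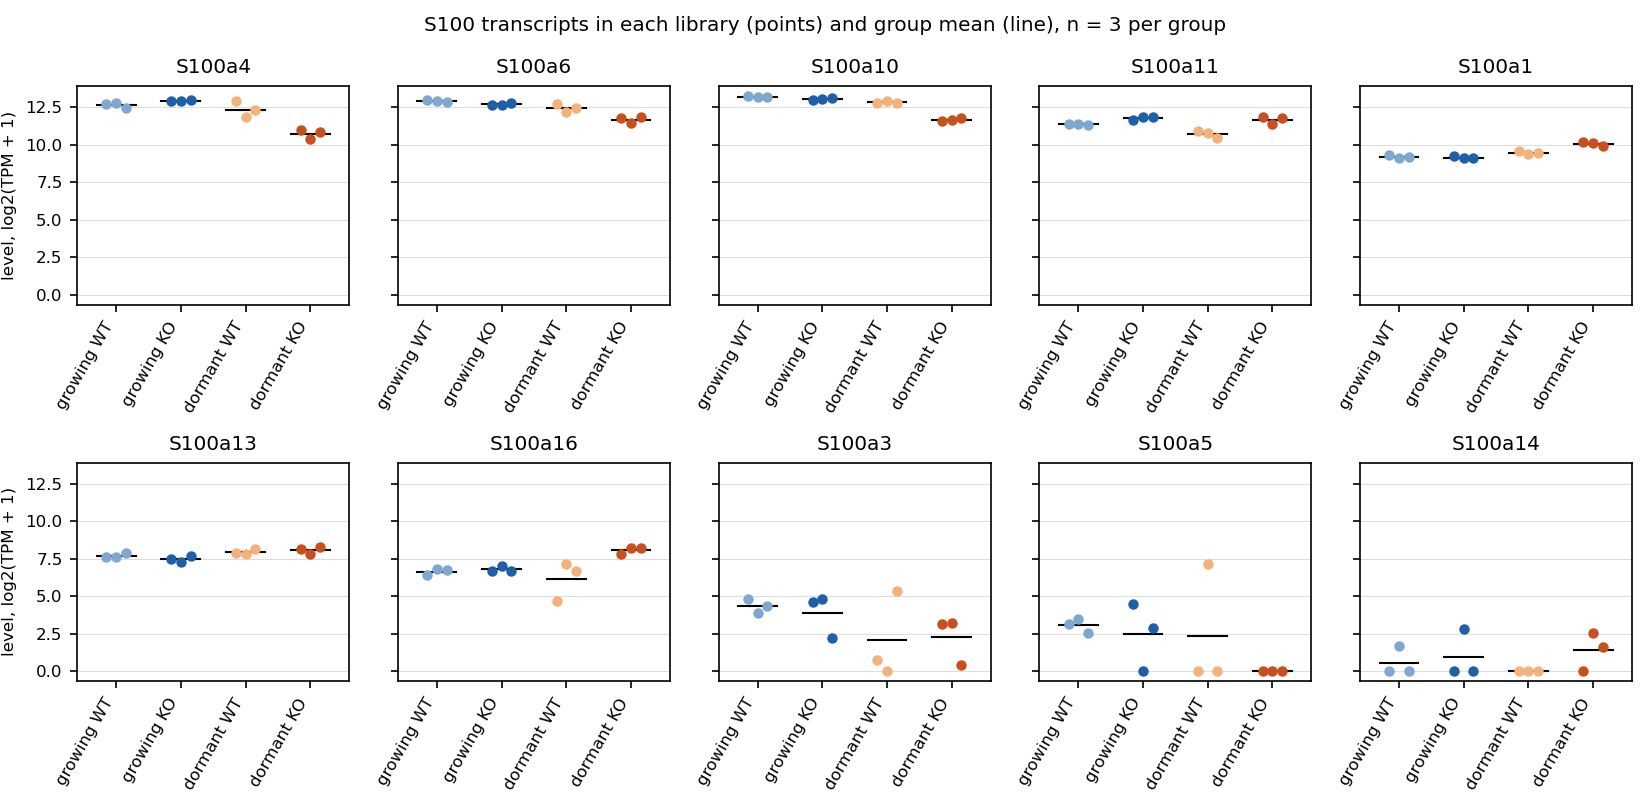
Level of each S100 transcript, as log2(TPM + 1) on a common vertical axis, with a point for each library and a line at the group mean (n = 3). The dormant KO points of S100a4, S100a6 and S100a10 lie below every other point, those of S100a1 and S100a16 above every other point, and S100a3, S100a5 and S100a14 spread over most of their range within single groups.

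The comparison of dormant cells from KO and WT hosts sets the host genotypes side by side, and with them the batch numbers. S100a4 and S100a10 fell and S100a16 rose, so 3 of 10 genes were called. Of all genes tested, 22.3% were called in this comparison, 12.9% higher and 9.39% lower, and the S100 count is close to that background. The median log2 difference was 0.17 over the 10 genes and 0.17 over all genes. Under median-ratio scaling 4 S100 genes were called, 3 higher (S100a1, S100a11 and S100a16) and 1 lower (S100a4), where 23.8% of all genes were called, 17.6% higher and 6.18% lower. Relative to the median of all genes under that scaling, these differed by 0.63, 0.97, 1.95 and -1.61 in that order. The libraries of both groups did not overlap for 6 of the 10 (S100a1, S100a4, S100a6, S100a10, S100a11 and S100a16), against 31.5% of all genes. With 3 libraries against 3, an exact permutation test of 1 gene cannot go below p = 0.1.

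S100a4 (ENSMUSG00000001020.8, chr3:90603771-90606045), the metastasis-associated member that binds non-muscle myosin, had 7538, 3687 and 5007 TPM in the dormant WT libraries against 2022, 1304 and 1799.9 TPM in those of dormant KO. Every dormant KO library was below every dormant WT library, although dormant WT itself was widely spread. The mean was 3.17-fold lower in dormant KO, with a log2 difference of -1.62 (SE 0.22, adjusted p = 0.000272, limma). Exons of S100a4 overlap the gene model Gm42674 on the same strand in GENCODE M21. Gm42674 has no row in the table used here, so no level can be set beside that of S100a4, and any reads it gave in the overlap cannot be told apart from those of S100a4.

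S100a10 (ENSMUSG00000041959.14, chr3:93555080-93564643), which lacks a working calcium site and forms a complex with annexin A2, had 6971, 7716 and 7089.8 TPM in the dormant WT libraries against 3009, 3215 and 3501 TPM in those of dormant KO. The groups were far apart, and the libraries of each lay close together. The mean was 2.24-fold lower in dormant KO (log2 difference -1.16, SE 0.06, adjusted p = 2.89e-07, limma). Median-ratio scaling, which sets the libraries level by genes present in all of them, moved this to -0.65 and below the size asked of a call, while the median of all genes moved from 0.17 to 0.50. Relative to the median of all genes, S100a10 differed by -1.33 as deposited and by -1.15 under that scaling.

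S100a6 (ENSMUSG00000001025.8, chr3:90612882-90624181), or calcyclin, lies next to S100a5 at the end of the first group. It had 6723, 4635 and 5467.5 TPM in the dormant WT libraries against 3442, 2741 and 3651 TPM in those of dormant KO. The groups did not overlap, but the log2 difference of -0.77 (SE 0.13, adjusted p = 0.00113, limma) was short of the size asked of a call. It was -0.25 under median-ratio scaling (-0.75 relative to the median of all genes).

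S100a16 (ENSMUSG00000074457.10, chr3:90537254-90543151), a broadly expressed member, had 24.0, 138 and 100.25 TPM in the dormant WT libraries against 224, 302 and 289 TPM in those of dormant KO. The mean was 3.10-fold higher in dormant KO (log2 difference 1.94, SE 0.51, adjusted p = 0.0157, limma). The low first library of dormant WT carried part of that size, and without it the log2 difference was 1.19 (adjusted p = 0.00521, limma). The call was lost when the fit held the compared groups alone (adjusted p = 0.132), and without the dormant KO library of replicate 2 (0.0511) or 3 (0.051).

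S100a11 and S100a1 differed in the same direction as S100a16 without being called. S100a11 (ENSMUSG00000027907.4, chr3:93520488-93526287), a partner of annexin A1, had 1907, 1741 and 1391 TPM in the dormant WT libraries against 3706, 2605 and 3491 TPM in those of dormant KO. Its log2 difference of 0.96 (SE 0.14, adjusted p = 0.000366, limma) lay just under the threshold of 1, and it was called under median-ratio scaling (1.47), with array weights (adjusted p = 0.00269, limma), and when replicate 1 of dormant WT (1.05) or replicate 2 of dormant KO (1.11) was left out. Relative to the median of all genes, S100a11 differed by 0.79 as deposited and by 0.97 under median-ratio scaling. S100a1 (ENSMUSG00000044080.9), known from heart and skeletal muscle where it acts on calcium release, had 755, 653 and 683 TPM in the dormant WT libraries against 1152, 1099 and 945 TPM in those of dormant KO. Here too no libraries overlapped, and the log2 difference was 0.61 (SE 0.12, adjusted p = 0.00245, limma). S100a13, the neighbour of S100a1 across the 42-base stretch and a factor in the release of FGF1 and interleukin 1α, had 234, 225 and 287 TPM in the dormant WT libraries against 278, 228 and 316 TPM in those of dormant KO, with overlapping libraries and a log2 difference of 0.13 (SE 0.20, adjusted p = 0.696, limma). The ratio of S100a1 to S100a13 within a library ran from 2.38 to 4.83 over all 12 libraries.

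S100a10 and S100a11 are neighbours in the second group, 28792 bases apart, and their differences had opposite signs. The ratio of S100a10 to S100a11 was 3.655, 4.43 and 5.10 in dormant WT and 0.812, 1.23 and 1.003 in dormant KO. It was 3.405 to 3.605 in growing WT and 2.40 to 2.58 in growing KO, so all 3 dormant KO libraries lay below the other 9. A ratio within a library does not depend on the scaling of the library. The ratio of S100a4 to S100a6 was 0.476 to 0.588 in dormant KO and 0.769 to 1.215 in the other 9 libraries.

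**Figure D3:**
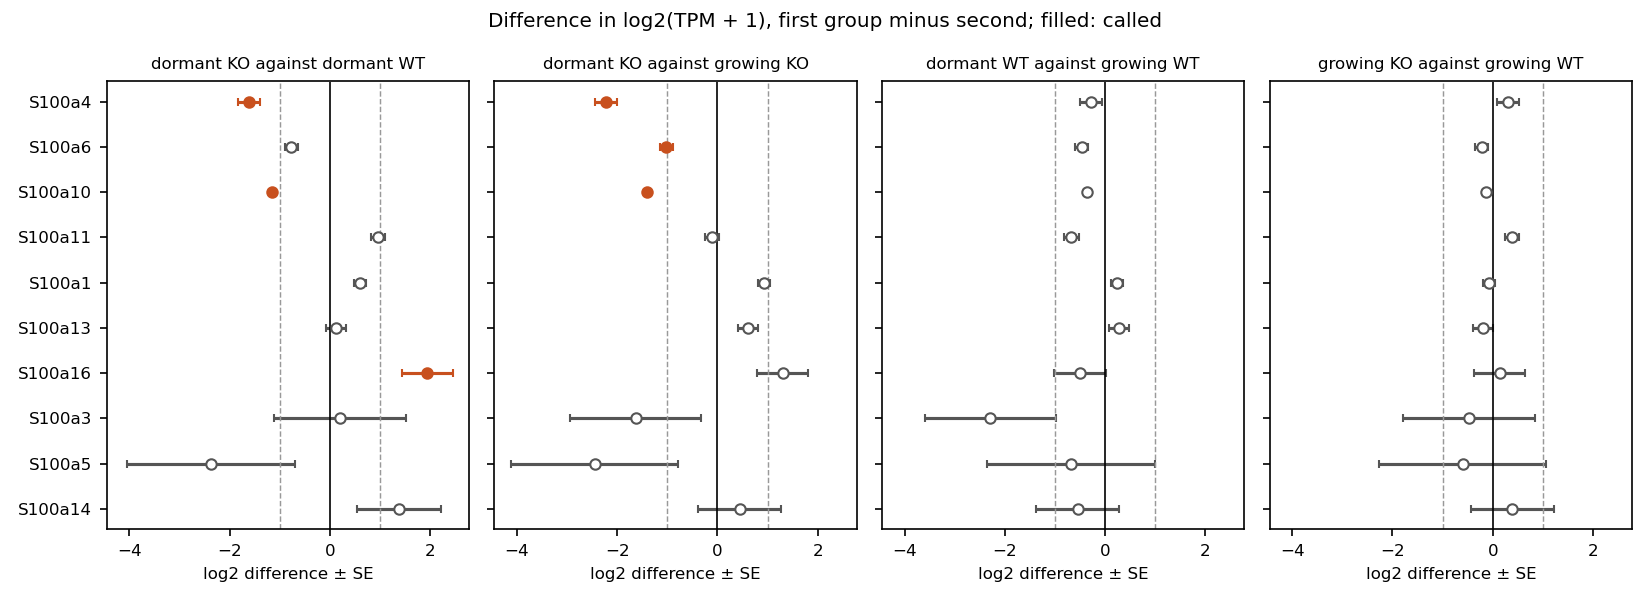
Difference in log2(TPM + 1) of each S100 transcript in 4 comparisons, as point and SE, with dashed lines at 1 and -1 and filled points for called genes. S100a4 and S100a10 are called lower in both panels that hold dormant KO, at -1.62 and -1.16 against dormant WT and -2.22 and -1.41 against growing KO, and no gene is called in the other 2 panels.

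Dormant KO was next compared with growing KO, cells from the same kind of host and the same batch number. It shares the dormant KO libraries with the comparison against dormant WT, and each group enters 2 of the 4 comparisons. S100a4, S100a6 and S100a10 fell and no S100 gene rose, so 3 of 10 were called, against 17.8% of all genes (9.48% lower and 8.31% higher). Libraries did not overlap for 6 of the 10, against 44.7% of all genes. The median log2 difference over the 10 was -0.56, and over all genes it was -0.32. Median-ratio scaling, under which the median of all genes was 0.09, gave 4 calls, 3 higher (S100a1, S100a13 and S100a16) and 1 lower (S100a4), with 16.6% of all genes called (11.5% higher and 5.10% lower).

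S100a4 was at 7609, 7744 and 8158 TPM in growing KO. All 3 values were above 7538 TPM, the highest of the dormant WT values. Against this level the dormant KO mean was 4.59-fold lower (log2 difference -2.22, SE 0.22, adjusted p = 4.94e-05, limma), the widest gap of any called gene among the 10. S100a10 had 8220.2, 8615 and 8937 TPM in growing KO, and its mean was 2.65-fold lower in dormant KO (log2 difference -1.41, SE 0.06, adjusted p = 8.06e-08, limma). S100a6 had 6263, 6481 and 7047 TPM in growing KO, and its mean was 2.01-fold lower in dormant KO (log2 difference -1.02, SE 0.13, adjusted p = 0.000243, limma). The S100a6 call was close to the threshold: it was lost under median-ratio scaling (-0.42), with array weights (-0.99), and without the dormant KO library of replicate 2 (-0.89) or the growing KO library of replicate 3 (-0.97). S100a10 was at -0.81 under median-ratio scaling and then not called. Relative to the median of all genes, S100a10 differed by -1.09 as deposited and by -0.90 under that scaling, and S100a6 by -0.70 and -0.51.

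S100a1 was at 593, 542 and 546 TPM in growing KO, below all dormant KO libraries. Its log2 difference was 0.92 (SE 0.12, adjusted p = 0.000223, limma), and under median-ratio scaling (1.52) and quantile normalization (1.08), as well as without the dormant KO library of replicate 3 (1.01), it passed the size asked of a call. S100a16 was at 102, 128 and 99.6 TPM in growing KO, also below all dormant KO libraries, with a log2 difference of 1.30 (SE 0.51, adjusted p = 0.103, limma). Calls came under median-ratio scaling (1.89, adjusted p = 0.0309), with array weights (1.27, 0.00597) and with the compared groups alone (1.30, 0.00377). S100a13 was at 181, 154 and 207 TPM in growing KO, with a log2 difference of 0.60 (SE 0.20, adjusted p = 0.0637, limma), and it was called under median-ratio scaling (1.19). S100a11 was at 3188, 3596 and 3604 TPM in growing KO, a range that overlaps dormant KO, and its log2 difference of -0.10 took either sign under other scalings (-0.44 to 0.50).

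**Figure D4:**
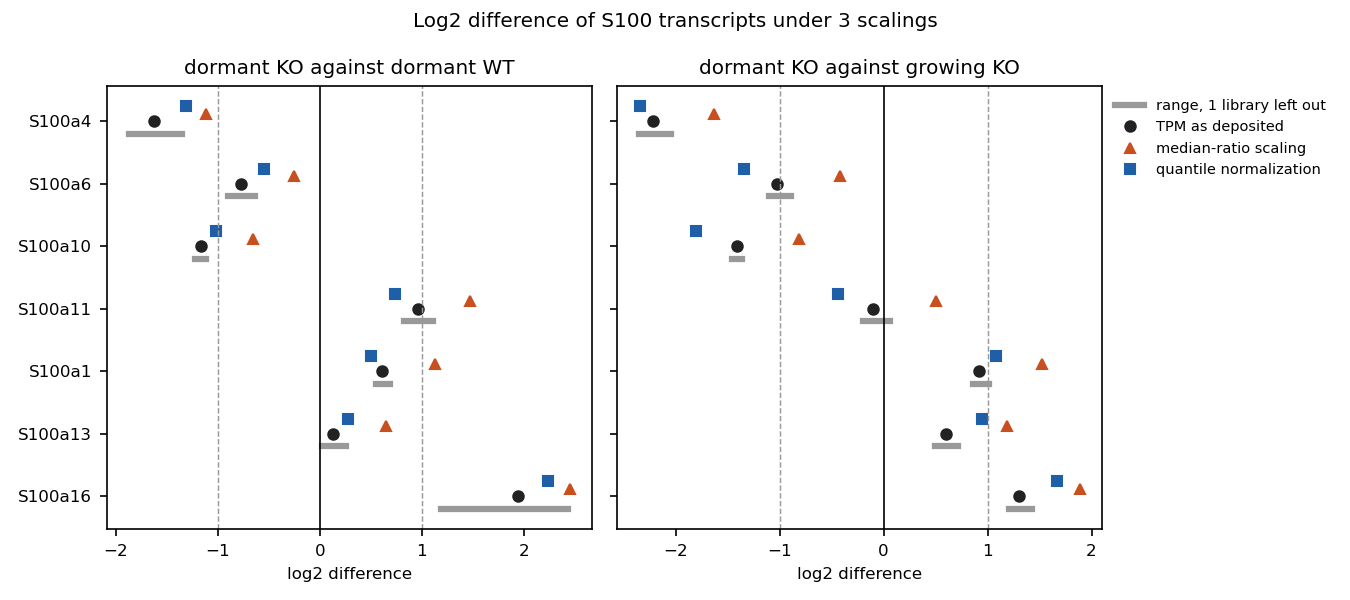
Log2 difference of the 7 S100 transcripts with the steadier levels under 3 scalings (markers) and the range when 1 library is left out (grey bars), for dormant KO against dormant WT and against growing KO. Median-ratio scaling moves every gene to the right, taking S100a10 to -0.65 and -0.81, while S100a4 stays below -1 throughout and S100a11 takes either sign in the second panel.

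The same step was compared in WT hosts. No S100 gene was called by limma between dormant WT and growing WT, while 3 had an unadjusted p under 0.05 against 23.9% of all genes, and 7.51% of all genes were called (1.85% higher and 5.67% lower). Libraries did not overlap for 4 of the 10 (S100a1, S100a6, S100a10 and S100a11), against 26.6% of all genes. S100a10 was at 9715, 9096 and 9303 TPM in growing WT, above all dormant WT libraries, with a log2 difference of -0.37 (SE 0.06, adjusted p = 0.00362, limma). S100a11 was at 2695, 2671 and 2594.5 TPM in growing WT, with a log2 difference of -0.67 (SE 0.14, adjusted p = 0.0122, limma). S100a6 was at 8102, 7701 and 7206 TPM in growing WT, with a log2 difference of -0.47 (SE 0.13, adjusted p = 0.0477, limma). These 3 genes passed the p threshold but not the size. S100a4 was at 6685, 6876 and 5542 TPM in growing WT, within the dormant WT range, and its log2 difference was -0.29 (SE 0.22, adjusted p = 0.462, limma). S100a1 was at 629, 557 and 586 TPM, S100a16 at 84.7, 109 and 105 TPM and S100a13 at 195, 190.02 and 232 TPM in growing WT, with adjusted p of 0.239, 0.599 and 0.457 (limma).

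Last, growing cells were compared between hosts. Between growing KO and growing WT limma called no S100 gene, 1 of 10 (S100a11) had an unadjusted p under 0.05 against 7.53% of all genes, and 0.977% of all genes were called (0.715% higher and 0.261% lower). S100a4, S100a6, S100a10 and S100a11 did not overlap between the groups, 4 of 10 against 23.9% of all genes. Their log2 differences were 0.31, -0.22, -0.13 and 0.38 in that order, and their adjusted p lay between 0.409 and 1 (limma). For S100a11 the adjusted p ran from 0.0116 to 0.856 (limma) over the alternative fits, none of which called it. The level order of the 4 groups was thus growing KO, growing WT, dormant WT and dormant KO for S100a4, whose mean TPM was 7837 ± 286, 6368 ± 722, 5411 ± 1957 and 1708 ± 368 (SD, n = 3). Dormant WT overlapped growing WT in that order, and the other neighbours did not overlap. S100a10 had means of 9371 ± 315 TPM in growing WT, 8591 ± 359 in growing KO, 7259 ± 400 in dormant WT and 3242 ± 247 in dormant KO, with no overlap between neighbours.

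Whether the step from growing to dormant differed between hosts was tested as an interaction. S100a4 and S100a10 were called, both lower, 2 of 10 against 10.1% of all genes (6.18% higher and 3.91% lower). For S100a4 the dormant minus growing difference was -2.22 in KO and -0.29 in WT hosts, and the difference between these was -1.93 (SE 0.31, adjusted p = 0.00298, limma). For S100a10 the values were -1.41 and -0.37, with a difference of -1.04 (SE 0.08, adjusted p = 3.56e-05, limma), which was -0.52 under median-ratio scaling and -0.97 under quantile normalization and not called in either. Median-ratio scaling moved the median of all genes from 0.16 to 0.49 in this comparison, and relative to that median S100a10 differed by -1.20 as deposited and by -1.01 under the scaling. Under quantile normalization that relative value was -0.89. S100a1 gave 0.68 (SE 0.16, adjusted p = 0.021, limma), under the size asked of a call, and 1.20 and called under median-ratio scaling. S100a16 gave 1.80 (SE 0.72, adjusted p = 0.15, limma). With median-ratio scaling the interaction had 3 calls, S100a1 and S100a11 higher and S100a4 lower, against 11% of all genes (8.69% higher and 2.30% lower). Relative to the median of all genes under that scaling, these differed by 0.71, 0.60 and -1.90 in that order.

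S100a3, S100a5 and S100a14 were too low and uneven to describe beyond their values. S100a3, known from the hair cuticle, had 0.70, 0.02 and 39.9 TPM in dormant WT, 7.87, 8.08 and 0.33 TPM in dormant KO, 26.8, 13.95 and 19.2 TPM in growing WT and 23.6, 27.3 and 3.56 TPM in growing KO. A single dormant WT library held nearly all of its signal in that group, and without it S100a3 was called lower in dormant WT than in growing WT (-3.95, adjusted p = 0.0297, limma). Its exons also overlap Gm42674 on the same strand and the model Gm23464 on the other, which was listed at 0 in all 12 libraries. S100a5, known from olfactory neurons, was at 138 TPM in the second dormant WT library and listed at 0 in the other 2, at 0 in all of dormant KO, at 7.78, 10.3 and 4.75 TPM in growing WT and at 21.1, 0 and 6.45 TPM in growing KO. S100a14, an epithelial member, did not pass 6.12 TPM and was listed at 0 in 8 of 12 libraries. None of the 3 was called in any comparison of the complete fit. The pseudogene S100a11-ps was listed at 0 in all 12 libraries.

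A list of 19 genes was followed whose proteins bind S100 members or act in the same pathways, and 18 of them were tested. Between dormant KO and dormant WT 4 were called higher (Ager, Bsg, Fgf1 and Il1a) and 4 lower (Anxa1, Anxa2, Anxa5 and Sugt1), with a median log2 difference of 0.27 over the list and 0.17 over all genes. That is 8 of 18, against 22.3% of all genes called. Against growing KO, 4 were higher (Ager, Ahnak, Fgf1 and Il1a) and 5 lower (Anxa1, Anxa2, Anxa5, Cacybp and Plat) in dormant KO, against 17.8% of all genes. Plat, the tissue plasminogen activator, had a log2 difference of -2.64 there (SE 0.85, adjusted p = 0.0494, limma). Between dormant WT and growing WT none was higher and 2 were lower (Anxa11 and Cacybp), against 7.51% of all genes. Between growing KO and growing WT limma called none, 1 of 18 had an unadjusted p under 0.05 (7.53% of all genes), and 0.977% of all genes were called. In the interaction 2 were higher (Ager and Il1a) and 3 lower (Anxa1, Anxa2 and Anxa5), against 10.1% of all genes.

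Anxa2, whose protein carries S100a10 to the cell surface as a plasminogen-binding complex, had 3668, 2355 and 2957 TPM in the dormant WT libraries against 776, 999 and 847 TPM in those of dormant KO, a log2 difference of -1.76 (SE 0.14, adjusted p = 6.93e-06, limma). It was at 3037 to 3573 TPM in the 6 growing libraries. Both genes of this complex were therefore lower in dormant KO, and the ratio of S100a10 to Anxa2 was 3.88, 3.22 and 4.13 there against 1.90 to 3.28 in the other 9 libraries, an overlapping range. Ahnak, a scaffold of the same complex, was at 16.8 to 32.0 TPM in dormant WT and 25.2 to 51.7 TPM in dormant KO and was not called there (0.53, adjusted p = 0.465, limma). Against growing KO, at 5.99 to 10.2 TPM, Ahnak was higher in dormant KO (1.89, SE 0.46, adjusted p = 0.0136, limma).

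Anxa1, the annexin bound by S100a11, had 2612, 2568 and 3844 TPM in the dormant WT libraries against 446, 623 and 405 TPM in those of dormant KO, a log2 difference of -2.61 (SE 0.17, adjusted p = 1.63e-06, limma). S100a11 went the other way, so the ratio of S100a11 to Anxa1 was 0.730, 0.678 and 0.362 in dormant WT and 8.31, 4.18 and 8.62 in dormant KO. It was 1.465 to 1.605 in growing WT and 1.93 to 2.32 in growing KO, and the 4 groups did not overlap in this ratio.

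**Figure D5:**
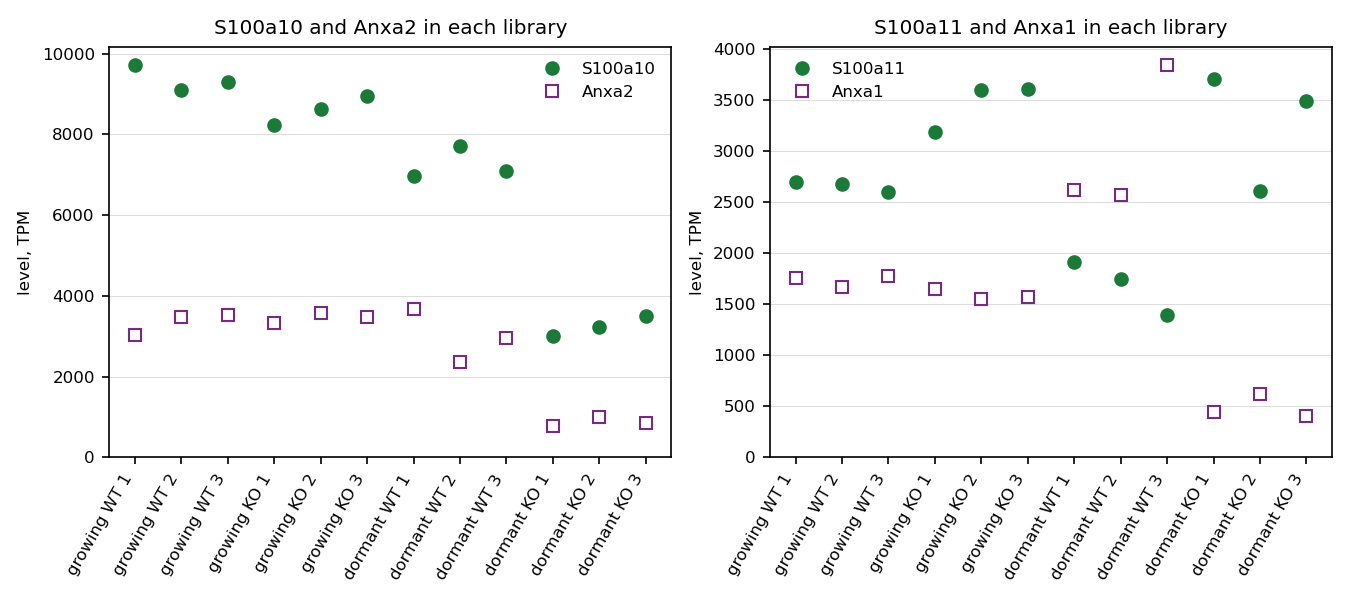
Level in TPM of S100a10 and Anxa2 (left) and of S100a11 and Anxa1 (right) in each of the 12 libraries. In dormant KO S100a10 and Anxa2 are both at their lowest, and so is Anxa1, at 405 to 623 TPM. S100a11 is at 2605 to 3706 TPM there, above dormant WT and overlapping growing KO.

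Cacybp, the calcyclin-binding protein that pairs with S100a6, was at 74.8 to 189 TPM in dormant WT and 105 to 178 TPM in dormant KO, and at 248 to 338 TPM in the growing libraries. It was lower in dormant than in growing cells of both hosts, by log2 differences of -1.33 in WT (SE 0.32, adjusted p = 0.0273, limma) and -1.13 in KO (SE 0.32, adjusted p = 0.0302, limma). Myh9, the myosin heavy chain bound by S100a4, was at 2.21 to 9.80 TPM over all libraries and was not called in any comparison. Ager, the receptor for several S100 proteins and also a marker of alveolar type 1 cells, had 391, 633 and 447 TPM in the dormant KO libraries and did not pass 0.86 TPM in dormant WT or 15.3 TPM in the growing libraries, a log2 difference of 8.61 from dormant WT (SE 0.72, adjusted p = 9.4e-06, limma).

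Marker transcripts of other cells moved with the S100 differences that hold dormant KO. Alveolar type 2 markers, 7 of 7 at 1 TPM or more in each dormant KO library, summed to 40071 to 42410 TPM there, 42.1 to 141 TPM in dormant WT, 52.5 to 95.1 TPM in growing WT (Sftpd and Slc34a2 at 0) and 456 to 464 TPM in growing KO. Alveolar type 1 markers, which include Ager, summed to 1003 to 1188 TPM in dormant KO (7 of 7), 1.39 to 81.0 TPM in dormant WT, 29.4 to 35.7 TPM in growing WT (Cldn18 at 0) and 58.7 to 68.1 TPM in growing KO. Globin and other erythroid markers summed to 50831 to 56264 TPM in dormant KO (5 of 5) and 8988 to 13031 TPM in dormant WT, with 6196 to 7791 TPM in the growing libraries. Macrophage markers summed to 3424 to 3612 TPM in dormant KO (7 of 9) and 1491 to 1957 TPM in dormant WT (6 of 9), with 41.7 to 209 TPM in the growing libraries (Marco at 0). Lyz2 alone had 2833 to 2944 TPM in dormant KO and 782 to 1407 TPM in dormant WT, and the other 8 macrophage genes summed to 505 to 668 TPM and 465 to 709 TPM, which overlap. C1qa, C1qb and Mrc1 had log2 differences of -0.68, -0.57 and -1.05 between dormant KO and dormant WT and were not called. Mesothelial markers summed to 780.3 to 1236 TPM in dormant KO (6 of 6) and 0 to 55.6 TPM in dormant WT, where Upk3b, Upk1b, Lrrn4 and Wt1 were at 0, as they were in growing WT (21.1 to 33.4 TPM), and to 62.95 to 95.7 TPM in growing KO. Heart muscle markers, of interest beside S100a1, summed to 152 to 203 TPM in dormant KO (3 of 6), 0.23 to 109 TPM in dormant WT (Myh6, Actc1 and Tnni3 at 0), 19.2 to 32.3 TPM in growing WT and 64.3 to 69.35 TPM in growing KO. Myl7 gave most of the dormant KO sum (115 to 162 TPM), and Actc1 and Tnni3 were at 5.80 to 22.7 TPM there. Tnnt2 gave nearly all of the growing KO sum (59.8 to 69.35 TPM) and was at 0.85 to 23.15 TPM in dormant KO, and this difference of -2.90 on the log2 scale was not called. The neutrophil list, which holds S100a8 and S100a9, summed to 4037 to 4353 TPM in dormant KO and 332 to 929 TPM in dormant WT. Its other 4 measured genes summed to 5.05 to 32.9 TPM in dormant KO and 6.15 to 43.5 TPM in dormant WT, which overlap; among them Csf3r rose (2.37, adjusted p = 0.00605, limma) and Mmp9 fell (-2.21, adjusted p = 0.0364, limma). The club and ciliated, endothelial, fibroblast, T and NK, and B cell lists also had higher sums in dormant KO than in each other group, without overlap. Against dormant WT, 4 of 5, 6 of 7, 4 of 7, 4 of 5 and 4 of 5 of their tested genes were called higher in that order and none lower, beside 12.9% of all genes called higher. Dcn alone gave 1094 to 1324 of the 1835 to 2074 TPM of the fibroblast sum in dormant KO. Lum and Pdgfra of that list had log2 differences of -2.02 and -1.41 against dormant WT and -3.41 and -0.56 against growing KO, and were not called. The part of these cells in the S100 levels was not tested.

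The calprotectin genes lie between the 2 groups of S100 genes on chromosome 3. S100a8 had 428, 559 and 304 TPM in the dormant WT libraries against 3207, 2912 and 3361 TPM in those of dormant KO (log2 difference 2.91, SE 0.25, adjusted p = 1.06e-05, limma), so in dormant KO it was at about the level of S100a6, S100a10 and S100a11. Beyond the S100a genes, S100b fell from 18.3 to 31.1 TPM in dormant WT to 0 to 0.76 TPM in dormant KO (-4.37, SE 0.49, adjusted p = 7.65e-05, limma). S100g, the vitamin D-dependent calbindin of epithelia, was listed at 0 in 9 libraries and had 111, 65.8 and 76.6 TPM in the 3 of dormant KO. S100a7a had 5.53, 6.31 and 2.88 TPM in growing KO, 2.70 TPM in 1 growing WT library and at most 0.16 TPM in the others, and was lower in dormant KO than in growing KO (-2.44, adjusted p = 0.00488, limma). S100z was listed at 0 in all 12 libraries. Within 100 kb of the 10 genes lie 28 other annotated genes, of which 8 were tested. S100a8 and S100a9 rose and Ilf2 and Snapin fell between dormant WT and dormant KO (log2 differences of -1.80 for Ilf2 and -1.38 for Snapin, adjusted p = 0.00726 and 0.0275, limma), 4 of 8 against 22.3% of all genes. In dormant KO against growing KO, S100a8 and S100a9 were higher and Ilf2 (-3.05), Ints3 (-2.04) and S100a7a lower, 5 of 8 against 17.8%. In dormant WT against growing WT, S100a8 and S100a9 were higher, 2 of 8 against 7.51%, and in the interaction S100a8 was higher and Ilf2 lower, 2 of 8 against 10.1%. Between growing KO and growing WT limma called none of the 8, where 0.977% of all genes were called, and 2 (S100a8 and S100a7a) had an unadjusted p under 0.05, against 7.53% of all genes.

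For the 4 members called in any comparison, the genes with the most similar profile were sought among 12992 tested genes, by the root mean square difference of log2(TPM + 1), each gene centred on its mean over the 12 libraries. Nearest to S100a4 were Rab34 (0.177), Slc25a5 (0.221) and Tuba1a (0.255). Nearest to S100a6 were Sgk1 (0.139), Atp5g1 (0.145) and Vim (0.156), and nearest to S100a10 were Uqcc2 (0.125), Ywhae (0.135) and Eloc (0.144). S100a16 had no profile as close, with Tmem205 at 0.348, Ddit3 at 0.400 and Nfib at 0.463. These are descriptions of likeness over 12 libraries in 4 groups.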

How the data were processed

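The samples were 12 bulk RNA libraries, 3 for each of 4 groups set by the sample titles. The deposited values are TPM, which the authors made with STAR 2.5.2b, RSEM 1.3.3 and cutadapt 1.18 on mm10 (per the labels), and no counts were used here, so the depth is unknown and counting error cannot be given. Each library sums to 1000000 TPM with 11325 to 15315 genes above 0, so a rise of some genes lowers the others. The labels name a TruSeq kit where the study's methods describe an amplification protocol for few cells, and tool versions differ between them. Another 30 columns of per-sample values matched no sample title and were not used.

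Genes with at least 1 TPM in at least 3 libraries (13002 of 25916 above 0) were fitted as log2(TPM + 1), a scale that understates changes of low genes, with limma 3.58.1 in R 4.3.3 (1 mean per group, all 12 libraries, 8 residual degrees of freedom, empirical Bayes with trend, two-sided). P-values were adjusted by Benjamini-Hochberg over all genes tested. A call needed an adjusted p of at most 0.05 and a log2 difference of at least 1. The fit was tested on simulated data. The S100 genes, the partner list and the 13 marker lists were chosen with earlier results of these data known. The genes named were all 10 members, the measured S100 genes outside them, 6 partners and the 3 genes most like each called member; the other partners and the genes within 100 kb are given by counts, with the called ones listed. Values of Plat, Ilf2, Snapin and Ints3 go beyond this rule and were chosen after they were seen. Alternatives were pseudocounts of 0.1 and 5, other filters, median-ratio scaling over 5729 genes, quantile normalization, array weights, the compared groups alone, a replicate block, no minimum difference, and each library left out. Positions came from GENCODE M21, where all 10 gene IDs matched with their version, and sequences from RefSeq promoters (GRCm38.p6).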

Additional observations from a re-analysis of the deposited data

Results flagged for a closer look

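The step from growing to dormant cells differed between KO and WT hosts for 2 S100 genes by the interaction test, which is why they are listed here. For S100a4 the difference between hosts was -1.93 on the log2 scale (SE 0.31, adjusted p = 0.00298, limma), and for S100a10 it was -1.04 (SE 0.08, adjusted p = 3.56e-05, limma). In both, all 3 dormant KO libraries lay below the other 9. Over 22 alternatives S100a4 ran from -2.17 to -1.41 and was called in all of them, while S100a10 ran from -1.10 to -0.52 and was called in 18. Marker transcripts of other lung cells were higher in the same dormant KO libraries, and all KO libraries carry another batch number than the WT libraries. The part of either in these differences was not tested.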

How the results depend on the processing

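Of the 875 values of the 10 S100 genes over all alternatives none that was called changed sign, and 24 changed sign while called in neither fit. S100a4 was called in all 16 alternatives of dormant KO against dormant WT (-1.87 to -1.11, adjusted p 8.12e-05 to 0.024, limma) and in all 17 against growing KO (-2.35 to -1.63). With no minimum difference, 6 S100 genes instead of 3 were called between dormant KO and dormant WT (3 higher and 3 lower, against 24.0% of all genes, 13.7% higher and 10.2% lower) and 3 instead of 0 between dormant WT and growing WT (all lower, against 8.44% of all genes, 6.51% lower). In the interaction 2 became 1 under quantile normalization, where 8.25% of all genes were called. With 1 library left out in turn, the count ran from 2 (0 higher, without the dormant KO library of replicate 3) to 4 (2 higher, dormant WT replicate 1 left out) between dormant KO and dormant WT, from 2 (dormant KO replicate 2 or growing KO replicate 3 left out) to 4 (dormant KO replicate 3 left out) between dormant KO and growing KO, from 0 to 1 between dormant WT and growing WT (1 without the dormant WT library of replicate 3, where S100a3 was called) and from 1 to 2 in the interaction (1 without the dormant KO library of replicate 1, where S100a10 was at -0.99). Without the dormant WT library of replicate 2, S100a10 was also at -0.99 and S100a16 was called at 2.28. The cause was not tested. Over all genes, the calls went from 2898 to 1418 (array weights) or 1680 (compared groups alone) between dormant KO and dormant WT, from 2313 to 3586 (array weights) between dormant KO and growing KO, from 127 to 516 (array weights), 308 (compared groups alone) or 73 to 81 (5 of 6 fits with a library left out) between growing KO and growing WT, from 977 to 310 (array weights), 637 (no filter), 1930 (dormant WT replicate 1 left out) or 452 to 494 (a growing WT library left out) between dormant WT and growing WT, and from 1312 to 870 (growing WT replicate 3 left out) in the interaction. The minimum of 5 TPM left out S100a14.

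Deviations from the group means in same-numbered libraries of both states had correlations of -0.0123 to 0.0206 over 13002 genes. In KO hosts these were 0.0206, 0.0192 and 0.0109, and differently numbered libraries gave -0.0178 to -0.000528. Correlations this small cannot show whether the numbers pair the libraries. With a replicate block in the fit the counts were 3, 0, 0, 3 and 2 for dormant KO against dormant WT, growing KO against growing WT, dormant WT against growing WT, dormant KO against growing KO and the interaction, against 20.9%, 0.661%, 5.78%, 16.3% and 8.06% of all genes, and no call of an S100 gene changed. A replicate block within host was fitted only for the comparisons of states and the interaction, and left their S100 counts as they were. It gave 415 and 670 calls over all genes (3.19% and 5.15%) for dormant WT against growing WT and for the interaction. For dormant KO against growing KO it gave 1787 (13.7%).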
